A study of Homo sapiens with 3 samples.

Results

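The genes described here are 10 transcriptional targets and feedback inhibitors of the ERK pathway: the MAP kinase phosphatase genes DUSP4, DUSP5 and DUSP6, the Sprouty genes SPRY1, SPRY2 and SPRY4, the SPRED genes SPRED1 and SPRED2, and the ETS transcription factor genes ETV4 and ETV5. They were taken by symbol from a table of 30866 gene symbols, and all 10 were found, each on 1 row. RNA was sequenced from HCC827, an established human non-small cell lung cancer line that carries a mutant, active EGF receptor. The dual-resistant population came from the erlotinib-resistant population after a further 10 days in 2 µM erlotinib, an EGF receptor inhibitor, with 0.2 µM crizotinib, a MET inhibitor. The erlotinib-resistant population had been kept in 2 µM erlotinib for 47 days. The vehicle population had 4 days of 0.1% DMSO. All 3 populations descend from a polyclonal pool that carries the ClonTracer barcode library, and each population gave 1 library. Drug, length of treatment and population therefore change together between libraries and cannot be told apart.

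Growth factor receptors such as the EGF receptor and MET activate RAS, which turns on the kinases RAF, MEK and ERK in sequence. Active ERK raises transcription of genes whose products damp the same pathway, so that the RNA levels of these genes are widely used as a readout of ERK pathway output. The phosphatases remove phosphate from ERK and related kinases, and the Sprouty and SPRED proteins act nearer to the receptor, on the activation of RAS and RAF. ETV4 and ETV5 belong to the PEA3 group of ETS factors. Their genes are repressed by Capicua, a DNA-binding repressor that ERK signalling inactivates. In EGF receptor-mutant lung cancer cells, this output is normally driven by the mutant receptor.

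To show what sequence lies at these genes' starts, 4 short motifs were searched for on both strands in RefSeq promoter windows (250 bases before to 50 bases after each start, GRCh38.p14). Windows were listed for 6 of the 10 genes, 10 windows in all: DUSP6, SPRY4 and SPRED1 had 1 each, SPRY1 and SPRED2 had 2 each, and SPRY2 had 3. DUSP4, DUSP5, ETV4 and ETV5 had no window and were not searched. The Capicua octamer was searched in its 4 forms TGAATGAA, TGAATGGA, TCAATGAA and TCAATGGA, the ETS motif as CCGGAA, the AP-1 motif as TGANTCA and the cyclic AMP response element as TGACGTCA. The matches in DUSP6, the gene with the largest difference between the libraries, are shown first, and the ETS matches of 2 Sprouty genes follow. Capitals mark the match, and each line reads 5′ to 3′ on the gene's strand.
DUSP6, before the start, chr12:89352510-89352533, minus strand: agaatgtaTCCATTGAgacgctcg
DUSP6, after the start, chr12:89352485-89352508, minus strand: tgtttgtaTCCATTGAggagctgc
SPRY1, chr4:123398311-123398332, plus strand: ctccgcagCCGGAAgggggccg
SPRY2, chr13:80341255-80341276, minus strand: tgcctcctCCGGAAaggcgagg
The DUSP6 window held the octamer TCAATGGA on the opposite strand in 2 places, 24 to 17 bases before the start and from base 2 after it, with the start counted as base 1. Of all 35116 windows in the RefSeq table, 3.77% held the octamer in 1 of its 4 forms, and among the 10 windows of these genes it was in that of DUSP6 alone. CCGGAA was in 1 window of SPRY1 and 1 of SPRY2, against 17.2% of all windows. TGANTCA was in 1 window of SPRED2, against 7.71% of all windows, and TGACGTCA was in none of the 10, against 1.85%. No match in the capitals above overlapped another motif searched. A match describes the letters only. The longest coding DUSP6 transcript of GENCODE 29 begins 770 bases before the RefSeq start used here, so other starts of these genes have other windows.

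Levels are given as FPKM, a fragment count divided by transcript length and library size, which allow genes to be compared per length. Differences are log2 differences of FPKM + 1 between 2 libraries, which understate the differences of low genes, and folds are on the same FPKM + 1 scale. A gene is called higher or lower at a log2 difference of at least 1 in either direction. With 1 library per population there is no replicate check, so no difference below has an error, a test or a p-value, and none can be set against a spread between replicates. The 3 comparisons also share libraries with each other. By an estimate from single-exon genes, a level of 1 FPKM over 1 kb corresponded to about 43.3 fragments in dual-resistant cells, 47.5 in erlotinib-resistant cells and 69.4 in vehicle cells. All 10 genes reached 1 FPKM in both erlotinib-resistant and vehicle cells, and 9 of 10 did so in dual-resistant cells. No other row of the table overlaps any of the 10 genes.

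The libraries were checked against markers of the cell line and of other cell types. All 6 epithelial markers (EPCAM, CDH1 and keratins) were at or above 1 FPKM in every library, with sums of 2292 FPKM in dual-resistant, 5200 in erlotinib-resistant and 5032 in vehicle cells. The lung lineage markers summed to 39.2 FPKM in dual-resistant, 125 FPKM in erlotinib-resistant and 221 FPKM in vehicle cells, and SFTPC was listed at 0 in all 3. The 4 mesenchymal markers (VIM, CDH2, FN1 and ZEB1) summed to 607 FPKM in dual-resistant cells, 51.5 in erlotinib-resistant cells and 108 in vehicle cells, and VIM and FN1 were higher in dual-resistant than in erlotinib-resistant cells. Against vehicle, VIM was higher in dual-resistant cells, while FN1, at 101 FPKM in vehicle cells, lay within the limit at a log2 difference of 0.79. CDH2 and ZEB1 reached 1 FPKM in dual-resistant cells alone, at 11.5 FPKM and 5.98 FPKM, so that the filter fixed their direction. Leukocyte, endothelial and fibroblast markers were low in every library. The highest of them were COL1A1, at 5.38 FPKM in dual-resistant cells, and CD14, at 4.10 FPKM in vehicle cells, while CD3E was listed at 0 in all 3.

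**Figure D1:**
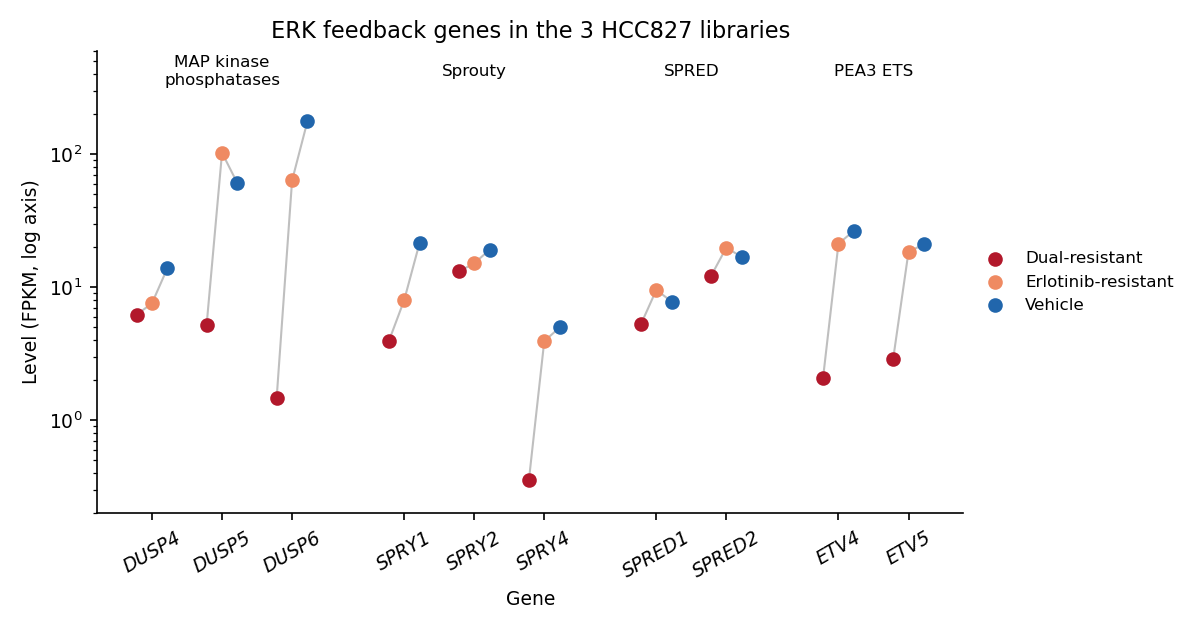
Level of each of the 10 genes in FPKM (log axis) in dual-resistant, erlotinib-resistant and vehicle cells, 1 point per library and a grey line joining the points of a gene. DUSP6 spans the widest range, at 1.48 FPKM in dual-resistant, 63.6 FPKM in erlotinib-resistant and 178 FPKM in vehicle cells. Every gene has its lowest point in dual-resistant cells, and the share of all genes lowest there was not counted.

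Summed over the 10 genes, the level was 52.7 FPKM in dual-resistant cells, 270 in erlotinib-resistant cells and 370 in vehicle cells. Each of the 10 genes had its lowest value in dual-resistant cells. The share of all genes with their lowest value there was not counted, so this count has no background beside it. The highest value was in vehicle cells for 7 genes and in erlotinib-resistant cells for DUSP5, SPRED1 and SPRED2, again with no share of all genes counted. The order of the genes differed between the libraries as well. In dual-resistant cells SPRY2 (13.1 FPKM) and SPRED2 (12.1 FPKM) led and DUSP6 stood ninth, at 2.81% of the summed level. In erlotinib-resistant cells DUSP5 and DUSP6 led, and in vehicle cells DUSP6 led with 48.0% of the summed level and DUSP5 followed. DUSP5 and DUSP6 together made up 12.7% of the sum in dual-resistant cells, 61.5% in erlotinib-resistant cells and 64.4% in vehicle cells. The other 8 genes summed to 46.0 FPKM in dual-resistant, 104 FPKM in erlotinib-resistant and 132 FPKM in vehicle cells. SPRY4 was the lowest of the 10 in each library.

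The first comparison asked how these genes stood in the erlotinib-resistant population against vehicle-treated cells. In erlotinib-resistant cells 2 of the 10 genes, DUSP6 and SPRY1, were lower and none was higher, while 8 lay within the limit. Over all 13381 genes compared, 6.03% were lower and 3.81% higher, so that higher genes made up 38.7% of all calls. With the library sums made equal, that share was 53.7%, with the same count of 2 lower among the 10 genes. The median log2 difference of the 10 genes was -0.29, against 0.00 for all genes compared, and 7 of the 10 values were below 0.

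Of the phosphatase genes, DUSP6, which encodes a cytoplasmic phosphatase specific for ERK (Entrez ID 1848, GRCh37 chromosome 12, 89741837 to 89746296), measured 63.6 FPKM in erlotinib-resistant cells and 178 FPKM in vehicle cells. Erlotinib-resistant cells thus held 35.8% of the vehicle level, a log2 difference of -1.47. DUSP5, which encodes a nuclear phosphatase for ERK (Entrez ID 1847, chromosome 10, 112257625 to 112271302), measured 103 FPKM in erlotinib-resistant cells and 60.5 FPKM in vehicle cells, within the limit at a log2 difference of 0.75. DUSP4, the gene of a nuclear phosphatase of ERK and other MAP kinases (Entrez ID 1846, chromosome 8, 29190579 to 29208267), measured 7.58 FPKM in erlotinib-resistant cells and 13.9 FPKM in vehicle cells, also within the limit at -0.80.

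The Sprouty proteins inhibit signalling from receptor tyrosine kinases to RAS and ERK. SPRY1 (Entrez ID 10252, chromosome 4, 124317956 to 124324909) measured 7.998 FPKM in erlotinib-resistant cells and 21.5 FPKM in vehicle cells, a log2 difference of -1.32. SPRY2, whose product also binds the ubiquitin ligase CBL (Entrez ID 10253, chromosome 13, 80910112 to 80915086), measured 15.1 FPKM in erlotinib-resistant cells and 19.2 FPKM in vehicle cells. SPRY4 (Entrez ID 81848, chromosome 5, 141689992 to 141704620) measured 3.94 FPKM in erlotinib-resistant cells and 4.99 FPKM in vehicle cells. Both lay within the limit, SPRY2 at a log2 difference of -0.32 and SPRY4 at -0.28. The SPRED proteins bring neurofibromin, an inactivator of RAS, to the membrane. SPRED1 (Entrez ID 161742, chromosome 15, 38545052 to 38649450) measured 9.56 FPKM in erlotinib-resistant cells and 7.79 FPKM in vehicle cells. SPRED2 (Entrez ID 200734, chromosome 2, 65537985 to 65659656) measured 19.9 FPKM in erlotinib-resistant cells and 16.9 FPKM in vehicle cells. Both values were above vehicle but within the limit, at log2 differences of 0.26 and 0.23.

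The PEA3 factor genes lay within the limit as well. ETV4 measured 21.3 FPKM in erlotinib-resistant cells and 26.6 FPKM in vehicle cells, a log2 difference of -0.31. ETV5 measured 18.5 FPKM in erlotinib-resistant cells and 21.0 FPKM in vehicle cells, a log2 difference of -0.18. Of the drug targets, EGFR measured 885 FPKM in erlotinib-resistant cells and 171 FPKM in vehicle cells, and MET measured 763 FPKM in erlotinib-resistant cells and 98.9 FPKM in vehicle cells.

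The second comparison set the dual-resistant population against the erlotinib-resistant population from which it came. DUSP5, DUSP6, SPRY4, ETV4 and ETV5 were lower in dual-resistant cells, by 3.65-fold to 26.0-fold, and none of the 10 genes was higher. DUSP4, SPRY1, SPRY2, SPRED1 and SPRED2 lay within the limit, each with a value below 0. Of all 13385 genes compared, 7.22% were lower and 10.1% higher. The median log2 difference of the 10 genes was -1.37, against -0.03 for all genes compared. It depended on the pseudocount: with 5 FPKM added in place of 1 it was -0.64, within the limit, and with 0.1 FPKM added it was -1.83. RNA was taken from whole populations, so fewer cells expressing a gene and less RNA of it per cell cannot be told apart.

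**Figure D2:**
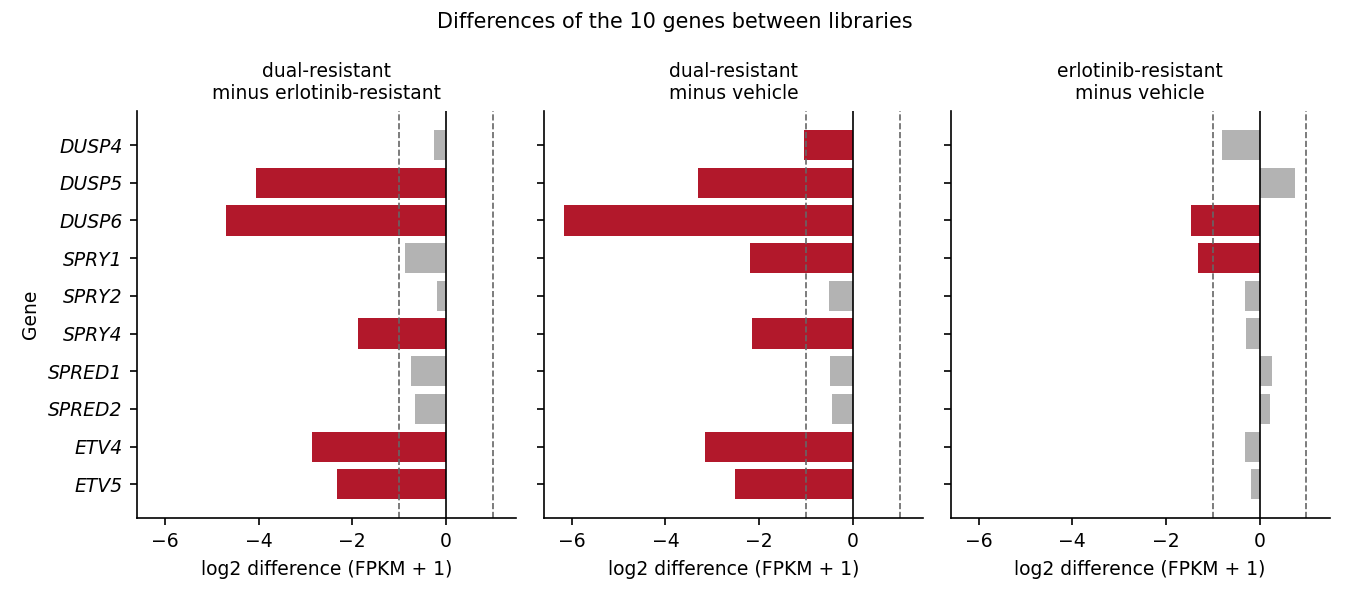
Log2 difference of FPKM + 1 of each gene between 2 libraries, in 3 panels, with dashed lines at the limit of 1 in either direction and red bars past it. Dual-resistant cells lie past the limit against erlotinib-resistant cells for 5 genes and against vehicle cells for 7, and erlotinib-resistant cells lie past it against vehicle cells for DUSP6 and SPRY1.

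DUSP6 measured 1.48 FPKM in dual-resistant cells and 63.6 FPKM in erlotinib-resistant cells, so that 2.33% of the level was left. Its log2 difference was -4.70, which ranked 9 from the lowest among the 13051 genes not listed at 0 in either library. On the depth estimate, with the longest coding transcript of GENCODE 29, the dual-resistant value stood on about 280 fragments and the erlotinib-resistant value on about 13000. DUSP5 measured 5.22 FPKM in dual-resistant cells and 103 FPKM in erlotinib-resistant cells, with a log2 difference of -4.06 and rank 14 from the lowest. DUSP4 lay within the limit, with 6.22 FPKM in dual-resistant cells and 7.58 FPKM in erlotinib-resistant cells. DUSP5 was 1.68-fold higher, within the limit, in erlotinib-resistant cells against vehicle and 16.7-fold lower in dual-resistant cells against erlotinib-resistant cells.

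ETV4 (Entrez ID 2118, chromosome 17, 41605211 to 41623762) measured 2.08 FPKM in dual-resistant cells and 21.3 FPKM in erlotinib-resistant cells, a log2 difference of -2.85. ETV5 (Entrez ID 2119, chromosome 3, 185764106 to 185826901) measured 2.88 FPKM in dual-resistant cells and 18.5 FPKM in erlotinib-resistant cells, a log2 difference of -2.33. Of the level in erlotinib-resistant cells, 9.81% of ETV4 and 15.5% of ETV5 was left in dual-resistant cells.

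Of the 3 Sprouty genes, SPRY4 was past the limit with 1 FPKM added. It measured 0.353 FPKM in dual-resistant cells and 3.94 FPKM in erlotinib-resistant cells, with 8.96% of the level left. Its dual-resistant value, the lowest of any of the 10 genes, stood on about 76 fragments by the depth estimate. Its log2 difference was -1.87, which the added 1 FPKM makes smaller than the ratio of the levels, and with 5 FPKM added it was -0.74, within the limit. SPRY1 measured 3.92 FPKM in dual-resistant cells and 7.998 FPKM in erlotinib-resistant cells, within the limit at -0.87 but past it, at -1.01, with 0.1 FPKM added. SPRY2 measured 13.1 FPKM in dual-resistant cells and 15.1 FPKM in erlotinib-resistant cells, with a log2 difference of -0.19, the smallest of the 10. SPRED1 and SPRED2 kept 55.2% and 61.0% of their erlotinib-resistant level, with 5.27 FPKM and 12.1 FPKM in dual-resistant cells, and both lay within the limit.

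**Figure D3:**
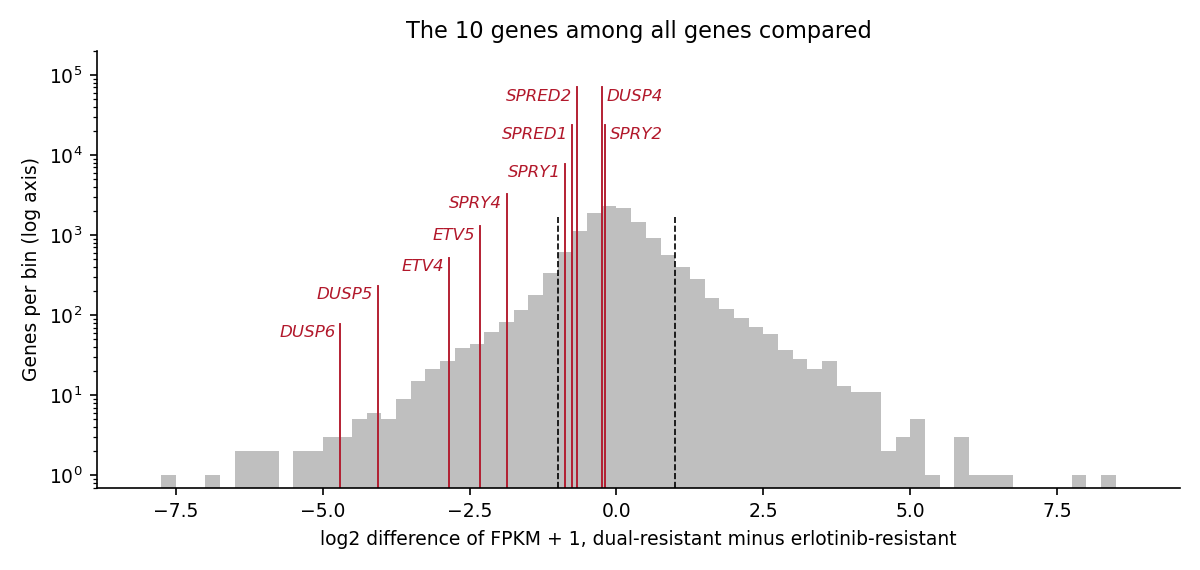
Distribution of the log2 difference, dual-resistant minus erlotinib-resistant, over all 13385 genes compared (grey, number of genes per bin on a log axis), with the 10 genes as red lines and the limit of 1 in either direction dashed. DUSP6, at -4.70, and DUSP5, at -4.06, lie in the sparse left tail, and SPRY2, at -0.19, and DUSP4, at -0.25, lie in the bulk.

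These differences came in a population in which marker levels differed too, and the part of that in the values of the 10 genes was not tested. Of the epithelial markers 4 of 6 were lower than in erlotinib-resistant cells, against 7.22% of all genes compared. Of the mesenchymal markers VIM measured 414 FPKM in dual-resistant cells, 23.3 FPKM in erlotinib-resistant cells and 7.04 FPKM in vehicle cells. FN1 measured 176 FPKM in dual-resistant cells, 27.9 FPKM in erlotinib-resistant cells and 101 FPKM in vehicle cells. FN1 was thus lower in erlotinib-resistant cells than in vehicle cells, at a log2 difference of -1.82. CDH2 and ZEB1 passed the filter through dual-resistant cells alone. MET measured 96.2 FPKM in dual-resistant cells and 763 FPKM in erlotinib-resistant cells, and EGFR measured 698 FPKM in dual-resistant cells and 885 FPKM in erlotinib-resistant cells.

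The third comparison spanned both steps, dual-resistant cells against vehicle. Lower were 7 of the 10 genes and higher none, and SPRY2, SPRED1 and SPRED2 lay within the limit. Of all 13378 genes compared, 10.4% were lower and 11.0% higher, so that higher genes made up 51.3% of all calls. With the library sums made equal, that share was 66.0%, with 6 of the 10 genes lower. The median log2 difference of the 10 genes was -2.17, against -0.01 for all genes compared, and -1.24 with 5 FPKM added. DUSP6 had the largest difference, at 1.48 FPKM in dual-resistant cells against 178 FPKM in vehicle cells. That is 0.833% of the vehicle level and a log2 difference of -6.17, rank 7 from the lowest among 13039 genes not listed at 0. DUSP5 and ETV4 followed, at log2 differences of -3.31 and -3.16, then ETV5 at -2.51, SPRY1 at -2.19 and SPRY4 at -2.15, and SPRY4 lay within the limit, at -0.90, with 5 FPKM added. DUSP4 measured 6.22 FPKM in dual-resistant cells and 13.9 FPKM in vehicle cells and was past the limit by little, at -1.05. It lay within the limit after the libraries were scaled to equal sums (-0.81) or equal upper quartiles (-0.99), and with 5 FPKM added (-0.76). The genes within the limit kept most of the vehicle level: 68.6% for SPRY2, 67.7% for SPRED1 and 72.0% for SPRED2.

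The genes also differed in the step at which the difference lay. Of the log2 difference between dual-resistant and vehicle cells, erlotinib-resistant cells already showed 60.4% for SPRY1, 76.2% for DUSP4 and 63.0% for SPRY2. The whole difference was past the limit by little for DUSP4 and within it for SPRY2. They showed 23.8% for DUSP6, 13.0% for SPRY4, 9.8% for ETV4 and 7.0% for ETV5. For DUSP5, and for SPRED1 and SPRED2, whose differences all lay within the limit, erlotinib-resistant cells lay on the other side of vehicle.

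By the same differences, other genes of the pathway were followed as lists. The cascade itself, of adaptors, RAS, RAF, MEK and ERK genes, lay within the limit for 17 of 17 genes in dual-resistant cells against erlotinib-resistant cells, with a median of -0.11. Most genes of the table did so in this comparison, with 7.22% of all genes compared lower, 10.1% higher and a median of -0.03. For all genes in erlotinib-resistant cells against vehicle the shares were 6.03% lower and 3.81% higher. In erlotinib-resistant cells against vehicle 1 of the 17 was higher, PTPN11, the gene of the phosphatase SHP2 that relays receptor signals to RAS, at 59.2 FPKM in erlotinib-resistant cells and 26.0 FPKM in vehicle cells.

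Other MAP kinase phosphatase genes went both ways. Of the 7 measured, 2 were higher in dual-resistant than in erlotinib-resistant cells and 1 was lower (median 0.58). Among all genes compared 10.1% were higher and 7.22% lower (median -0.03). DUSP1, an immediate early gene for a nuclear phosphatase of several MAP kinases, measured 162 FPKM in dual-resistant cells and 32.8 FPKM in erlotinib-resistant cells, a log2 difference of 2.27, and 105 FPKM in vehicle cells. DUSP9, which encodes a cytoplasmic phosphatase related to that of DUSP6, was also higher, at 2.62 FPKM in dual-resistant cells and 0.622 FPKM in erlotinib-resistant cells. DUSP2 was lower, at 1.28 FPKM in dual-resistant cells and 4.27 FPKM in erlotinib-resistant cells. DUSP7, whose product is also close to that of DUSP6, lay within the limit at -0.45. In erlotinib-resistant cells against vehicle, DUSP1 and DUSP9 were lower, by log2 differences of -1.64 and -1.46, and none of the 7 was higher. Of all genes 6.03% were lower there and 3.81% higher. In dual-resistant cells against vehicle DUSP2 was lower, at -2.03, and DUSP8 higher, at 1.57, with 10.4% of all genes lower and 11.0% higher.

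Of 3 family relatives of the 10 genes, 2 were lower and none higher in dual-resistant than in erlotinib-resistant cells, where 7.22% of all genes were lower and 10.1% higher. ETV1, the other PEA3 factor gene, measured 0.958 FPKM in dual-resistant cells, 5.27 FPKM in erlotinib-resistant cells and 1.38 FPKM in vehicle cells. It was higher in erlotinib-resistant cells against vehicle, at 1.40, and lower in dual-resistant cells against erlotinib-resistant cells, at -1.68. SPRED3 measured 0.543 FPKM in dual-resistant, 3.02 FPKM in erlotinib-resistant and 1.90 FPKM in vehicle cells and was lower in dual-resistant cells against erlotinib-resistant cells, at -1.38.

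Of 13 other genes often read as ERK output, 5 were lower and 1 higher in dual-resistant cells against erlotinib-resistant cells, with a median of -0.52. Over all genes compared, 7.22% were lower and 10.1% higher, with a median of -0.03. PHLDA1 measured 35.1 FPKM in dual-resistant cells and 173 FPKM in erlotinib-resistant cells. PLAUR, the urokinase receptor gene, measured 18.03 FPKM in dual-resistant cells and 54.3 FPKM in erlotinib-resistant cells. CCND1, a cyclin gene of G1 phase, measured 78.3 FPKM in dual-resistant cells and 181 FPKM in erlotinib-resistant cells. MAFF and EPHA2 were lower too, at log2 differences of -1.16 and -1.11. EPHA4 was higher, at 2.80 FPKM in dual-resistant cells and 0.126 FPKM in erlotinib-resistant cells, but reached 1 FPKM in dual-resistant cells alone, so that the filter fixed its direction. MYC and FOSL1 lay within the limit, at -0.21 and -0.39. Against vehicle, 7 of the 13 were lower in dual-resistant cells and 1 higher, against 10.4% and 11.0% of all genes compared. The higher gene was again EPHA4, whose direction the filter fixed here too. EGR1 measured 26.0 FPKM in dual-resistant cells and 452 FPKM in vehicle cells. In erlotinib-resistant cells against vehicle 2 of the 13 were higher, EPHA2 and FOSL1, and EGR1 was lower, with a median of -0.04. Of all genes, 3.81% were higher and 6.03% lower in that comparison.

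**Figure D4:**
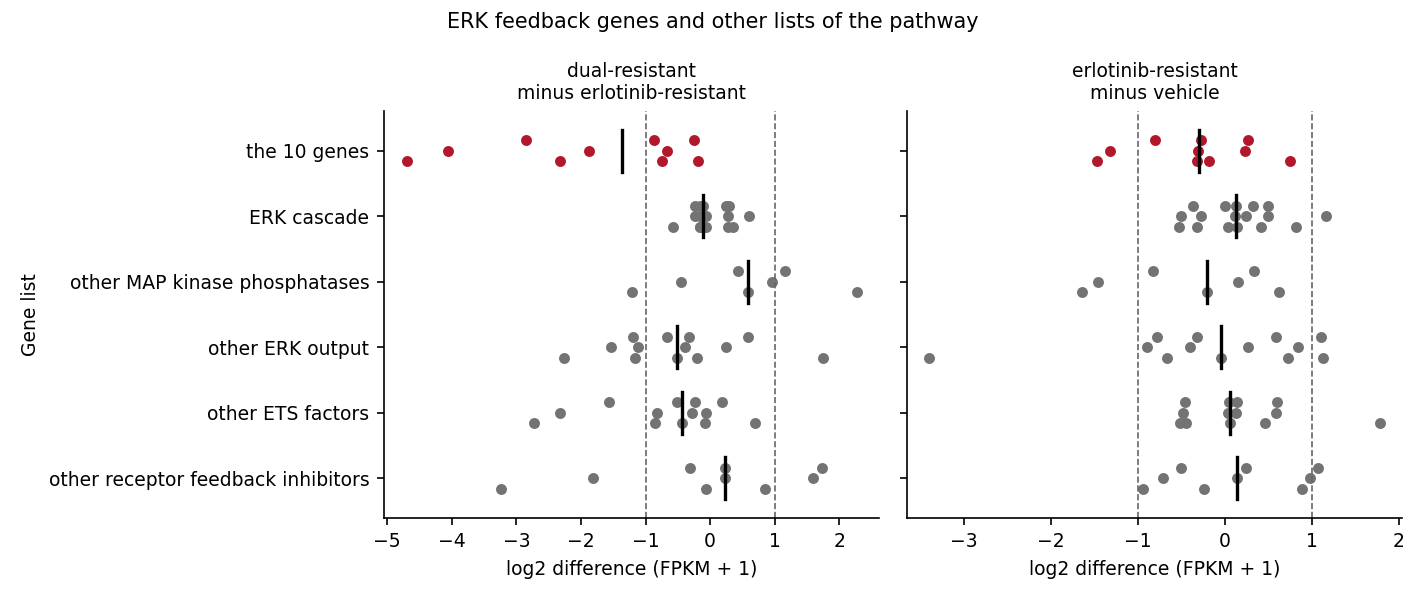
Log2 differences of FPKM + 1, 1 point per gene, of the 10 genes (red) and of other lists of the pathway (grey), with the median of each list as a black bar and the limit of 1 in either direction dashed. In dual-resistant cells against erlotinib-resistant cells (left panel) the median of the 10 genes is -1.37 and that of the ERK cascade is -0.11. The median of all genes compared, not drawn, is -0.03. The list labelled as receptor feedback inhibitors also holds FLRT3, which is not established as one.

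Genes with a like pattern were sought among 10044 genes that reached 5 FPKM in some library and had no 0, by the Euclidean distance between the pair of log2 differences (erlotinib-resistant minus vehicle, dual-resistant minus erlotinib-resistant) over the 3 libraries. Nearest to the medians of the 10 genes were CYB561, IDH1, TMEM216, EPB41L4A-AS1 and FAAH2, at distances of 0.05 to 0.09. In dual-resistant cells against erlotinib-resistant cells that median, -1.37, falls between SPRY1 at -0.87 and SPRY4 at -1.87. None of the 10 genes lay there, so the genes named are near a midpoint of the list. Among the genes searched, which leave out any listed at 0, DUSP6 had no close neighbour. DUSP6 lay in the sparse left tail of the differences, where few genes lie near one another. The genes nearest to it were LCN2, at a distance of 0.84, S100A14 and TMPRSS4, both at 0.97, AZGP1 at 1.14 and SLPI at 1.18. LCN2, which encodes a secreted lipocalin, measured 78.8 FPKM in dual-resistant cells and 3107 FPKM in erlotinib-resistant cells.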

How the data were processed

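The authors deposited FPKM values, with 1 column for each library. Per the submitters' processing notes, TopHat 1.3, Cufflinks 1.3 and the build GRCh37 were used; gene set, settings and strandedness are not given there. Start positions were read as counting from 0 and are printed from 1. Rows of 1 symbol were summed, and the 13425 genes that reached 1 FPKM in some library, less those with a missing cell, were compared by log2(FPKM + 1) with pandas 2.3.3 and NumPy 2.4.6. The calculation was run on simulated data with known folds and no noise, which checks its arithmetic only and cannot give a rate of false calls. An exact 0 can be a failed estimate: dual-resistant cells had a 0 for 23 of the 8469 genes that reached 5 FPKM in both other libraries. Depth was estimated as percentile 1 of FPKM times length over single-exon coding genes of 1 to 5 kb, picked by symbol from GENCODE 29, and is approximate.

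The 10 genes, the other lists and the alternatives were chosen with earlier results of these data known. The genes named beside the 10 are those past the limit (up to 4 a list with the largest difference) and the nearest patterns, with the drug targets EGFR and MET. Genes within the limit or further members of a list were named after their values were seen. RefSeq (GRCh38.p14) gave the promoter windows, whose coordinates are not mixed with those of the table.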

Additional observations from a re-analysis of the deposited data

How the results depend on the processing

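No paired analysis was possible because each group has 1 library. Each difference of the 10 genes was recomputed with a pseudocount of 0.1 or 5 FPKM, with 2 scalings, without the filter and with 1 row kept per symbol. None of the 180 values changed sign, and 174 kept their side of the limit. Much of this was fixed in advance. All 10 genes pass the filter and have 1 row each, so leaving out the filter or keeping 1 row could not change their values. A pseudocount cannot turn a sign, so only the 2 scalings could have done so. With 5 FPKM the median of the 10 genes was -0.64 in dual-resistant cells against erlotinib-resistant cells and -1.24 against vehicle, since a larger pseudocount shrinks low genes, and SPRY4 lay within the limit at -0.74 and -0.90 and DUSP4 at -0.76 against vehicle. With 0.1 FPKM, SPRY1 passed it against erlotinib-resistant cells, at -1.01. At a limit of 2 the genes lower in erlotinib-resistant cells against vehicle numbered 0, those in dual-resistant cells 4 against erlotinib-resistant cells and 6 against vehicle. Scaling to the same sum moved the median of all genes by 0.14 in erlotinib-resistant cells against vehicle and by 0.23 in dual-resistant cells against vehicle. Depth limits SPRY4 most.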

Other observations

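Over all genes compared, 7.22% were lower and 10.1% higher in dual-resistant cells against erlotinib-resistant cells, with a median of -0.03. Of 13 other ETS factor genes measured, 3 were lower and none higher in this comparison, with a median of -0.43. The 3 were ETS factor genes of epithelial cells: EHF measured 2.61 FPKM in dual-resistant cells and 23.0 FPKM in erlotinib-resistant cells, SPDEF 0.202 FPKM in dual-resistant cells and 5.06 FPKM in erlotinib-resistant cells, and ELF3 71.8 FPKM in dual-resistant cells and 216 FPKM in erlotinib-resistant cells. ETS1 measured 91.4 FPKM in dual-resistant cells, 56.2 FPKM in erlotinib-resistant cells and 15.7 FPKM in vehicle cells, and was higher in erlotinib-resistant cells against vehicle by a log2 difference of 1.78. The genes for Capicua, its ataxin partners and the COP1 ubiquitin ligase that degrades PEA3 factors lay within the limit for 7 of 7 in each of the 3 comparisons. Most genes of the table lay within it too. In erlotinib-resistant cells against vehicle 6.03% of all genes compared were lower and 3.81% higher. The shares in dual-resistant cells were 7.22% and 10.1% against erlotinib-resistant cells, and 10.4% and 11.0% against vehicle. CIC itself measured 12.9 FPKM in dual-resistant cells, 9.39 FPKM in erlotinib-resistant cells and 8.57 FPKM in vehicle cells.

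Other genes for regulators at the receptor went both ways, with 2 of 9 lower and 2 higher in dual-resistant cells against erlotinib-resistant cells. The shares of all genes in this comparison were 7.22% lower and 10.1% higher. CBLC, the gene of an epithelial CBL ubiquitin ligase, measured 2.96 FPKM in dual-resistant cells and 36.6 FPKM in erlotinib-resistant cells. ERRFI1, which encodes a direct inhibitor of the EGF receptor, measured 62.1 FPKM in dual-resistant cells and 222 FPKM in erlotinib-resistant cells. SH2B3, an adaptor gene, was higher, at 4.92 FPKM in dual-resistant cells and 0.789 FPKM in erlotinib-resistant cells. FLRT3, not an established feedback inhibitor, was higher too, at 8.78 FPKM in dual-resistant cells and 2.25 FPKM in erlotinib-resistant cells. Of 6 genes for inhibitors of RAS or RAF, RASA1 was lower in the same comparison, at -1.08, and none was higher. RASAL2, which encodes another RAS inactivator, measured 21.2 FPKM in dual-resistant cells, 12.0 FPKM in erlotinib-resistant cells and 5.12 FPKM in vehicle cells, and was higher against vehicle in both resistant libraries.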
